A study of Mus musculus with 6 samples.

Results

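Dietary fatty acids reach gene expression in part through receptors that bind them directly. Such receptors and related ones, 9 genes in all, were examined in mammary epithelial cells of *fat-1* and wild-type (WT) mice. The genes were the peroxisome proliferator-activated receptors *Ppara*, *Ppard* and *Pparg*, the retinoid X receptors *Rxra* and *Rxrb*, the liver X receptors *Nr1h2* (LXRβ) and *Nr1h3* (LXRα), and the free fatty acid receptors *Ffar2* and *Ffar4*. They were chosen by gene symbol, 9 of the 61880 rows of the deposited count table, and each was also followed as the sum of all rows with the same assembled locus number. Their loci held 17 rows among the 53912 loci. All 9 rows and all 9 locus sums passed the filter on low counts.

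RNA was sequenced from cells of the inguinal mammary gland of female mice on the FVB background (FVB/NJ in the sample labels), aged 6 to 8 weeks, with 3 samples of each genotype, each a pool of several mice, so that single mice cannot be compared. *fat-1* mice carry a roundworm n-3 desaturase gene that turns n-6 into n-3 polyunsaturated fatty acids (PUFA), and WT mice lack it. The promoter of the transgene is not given in the sources used here. Mice of both genotypes were kept for life on their parental diet, a modified AIN93G diet with 10% fat by weight (22% of energy) from safflower oil, which is rich in the n-6 PUFA linoleic acid. The counts of each pool summed to between 204539059 and 232148824, and 3 counts corresponded to 0.0129 to 0.0147 CPM, the counts relative to the normalized library total. Such floors cover counting error only.

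PPARs and LXRs are nuclear receptors that bind DNA as pairs with an RXR. PPARs respond to fatty acids and their derivatives, n-3 PUFA among them, and LXRs respond to oxidised cholesterol. FFAR4 (GPR120) is a surface receptor for long-chain fatty acids that include n-3 PUFA, and FFAR2 (GPR43) is a surface receptor for short-chain fatty acids. PPARγ is best known for fat cell formation and PPARα for fatty acid oxidation in the liver.

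*Ffar2* and *Ffar4* were the receptors whose levels varied most between samples, so the 250 bases before their start sites are shown first, 5′ to 3′ on the strand of the gene, from RefSeq (GRCm38.p6). For *Ffar2* the window is that of the most upstream of its 4 listed start sites (chr7:30823776-30824025, minus strand), and for *Ffar4* that of its only listed start site (chr19:38096829-38097078, plus strand). Capitals mark the nuclear receptor half-site AGGTCA or its reverse complement TGACCT.
Ffar2: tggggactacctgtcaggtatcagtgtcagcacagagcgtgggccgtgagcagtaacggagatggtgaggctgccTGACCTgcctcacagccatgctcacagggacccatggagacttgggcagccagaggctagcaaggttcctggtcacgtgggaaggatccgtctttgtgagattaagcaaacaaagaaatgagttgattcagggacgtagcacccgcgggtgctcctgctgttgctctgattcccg
Ffar4: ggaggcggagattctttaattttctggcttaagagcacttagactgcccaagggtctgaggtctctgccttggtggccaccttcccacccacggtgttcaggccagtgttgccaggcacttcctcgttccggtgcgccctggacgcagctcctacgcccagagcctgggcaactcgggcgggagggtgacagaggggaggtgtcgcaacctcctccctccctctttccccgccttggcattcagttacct
The *Ffar2* window held 1 half-site, which began 175 bases before the start, and the *Ffar4* window held 0. The G+C content was 56.8% and 61.2%. RefSeq windows were found for all 9 receptors, 17 windows in all, and 6 of them held the half-site (in *Ffar2*, *Pparg* and *Rxra*; 2 of the *Ffar2* windows overlap and share a half-site), beside 14.0% of the 32851 windows of all genes. Repeats of the half-site, AGGTCANAGGTCA (DR1, known for PPAR-RXR pairs) and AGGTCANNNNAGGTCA (DR4, known for LXR-RXR pairs), each of which contains the half-site, were searched on both strands. They were in 0 windows of the receptors, and in 0.0335% and 0.0152% of all windows. A match is a description of the letters and not a bound site.

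Markers of the labelled cell type were present in all samples at unequal levels. The summed level of 8 luminal epithelial markers was 719 to 3120 CPM in *fat-1* pools and 766 to 2550 CPM in WT pools, and that of 7 basal markers was 95.4 to 400.0 and 95.3 to 331 CPM. The mean log2(CPM + 1) of both lists together lay at 3 levels, with 1 sample of either genotype at each. It was 6.16 and 6.30 in *fat-1* pool 1 and WT pool 1, 5.43 and 5.47 in *fat-1* pool 3 and WT pool 2, and 4.35 and 4.44 in *fat-1* pool 2 and WT pool 3. The summed level of 7 lymphocyte markers ran broadly in the opposite order, with 645 CPM and 652 CPM at the first level and 1200 CPM and 1270 CPM at the last, although lymph nodes were removed according to the methods of the study. This sum is not of lymphocyte genes alone. The locus of *Cd79a* also held *Arhgef1*, with 278 and 266 CPM at the first level and 507 and 521 CPM at the last. That of *Ptprcap* also held *Coro1b* and *Gpr152*, with 174 and 182 CPM at the first level and 196 and 200 CPM at the last. Adipocyte markers were near 0. All 7 of them together made up 1.12 to 2.60 CPM in *fat-1* pools and 1.28 to 2.77 CPM in WT pools, and *Adipoq*, which encodes adiponectin, lay between 0.256 and 0.500 CPM. Fibroblast markers (5 genes) summed to 1340 to 4790 CPM and 2860 to 4540 CPM, endothelial markers (5 genes) to 187 to 230 CPM and 205 to 252 CPM, and neutrophil markers (6 genes) to 21.1 to 50.0 CPM and 26.2 to 37.2 CPM. The locus of the macrophage marker *Cd68* also held *Eif4a1*, so macrophage markers are given only as a mean over 7 genes, 3.08 to 3.65 on the log2(CPM + 1) scale. Of the 52 marker genes, 0 had an adjusted *p*-value of 0.05 or less.

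The 9 receptors did not differ between *fat-1* and WT pools beyond the spread of the samples. With the quasi-likelihood test of edgeR and Benjamini–Hochberg adjustment over all features, 0 of 9 rows and 0 of 9 locus sums were past the adjusted threshold of 0.05, and all adjusted *p*-values were 1.00. The background was 0.0% of the 30683 tested rows and 0.0% of the 24061 tested locus sums. At an unadjusted *p*-value of 0.05 or less the test also gave 0 of 9 in both, beside 2.21% of rows and 1.14% of locus sums. In 0 of the 9 receptors, as row or as sum, did the values of the genotypes lie apart, beside 5.26% of rows and 4.15% of locus sums. The exact test of edgeR and DESeq2 also called 0 of the 9, beside 0.104% and 0.303% of rows and 0.0249% and 0.0332% of locus sums.

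**Figure D1:**
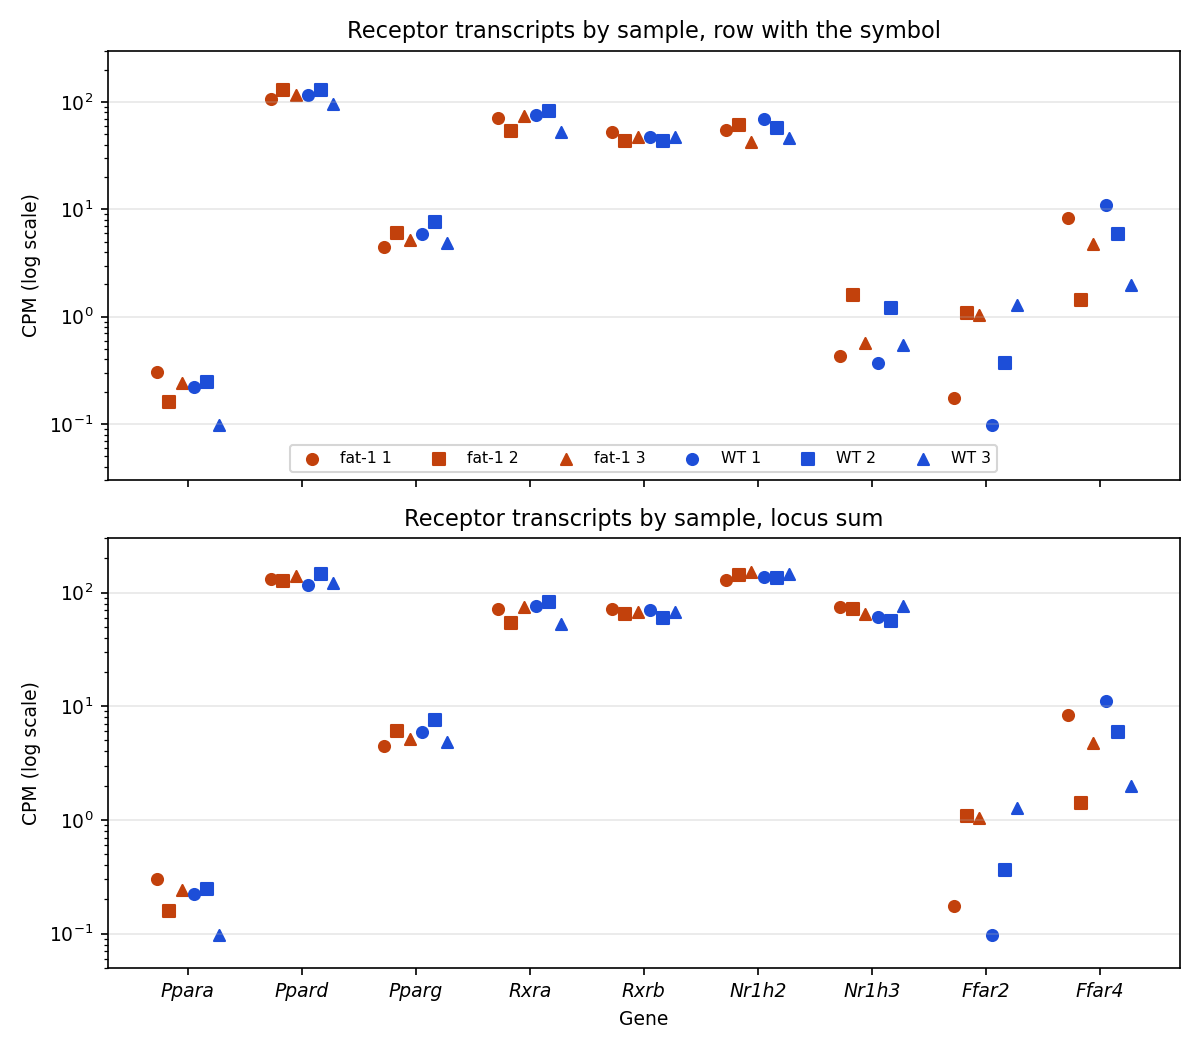
CPM on a log axis of the 9 receptors in each of the 6 samples, as the row with the gene symbol (top) and as the locus sum (bottom), with *fat-1* pools in orange, WT pools in blue and the sample number as the marker shape. Orange and blue points overlap for every receptor, *Ffar2* and *Ffar4* spread most, and *Nr1h3* lies below 2 CPM as a row but between 55.8 and 76.9 CPM as a sum.

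**Figure D2:**
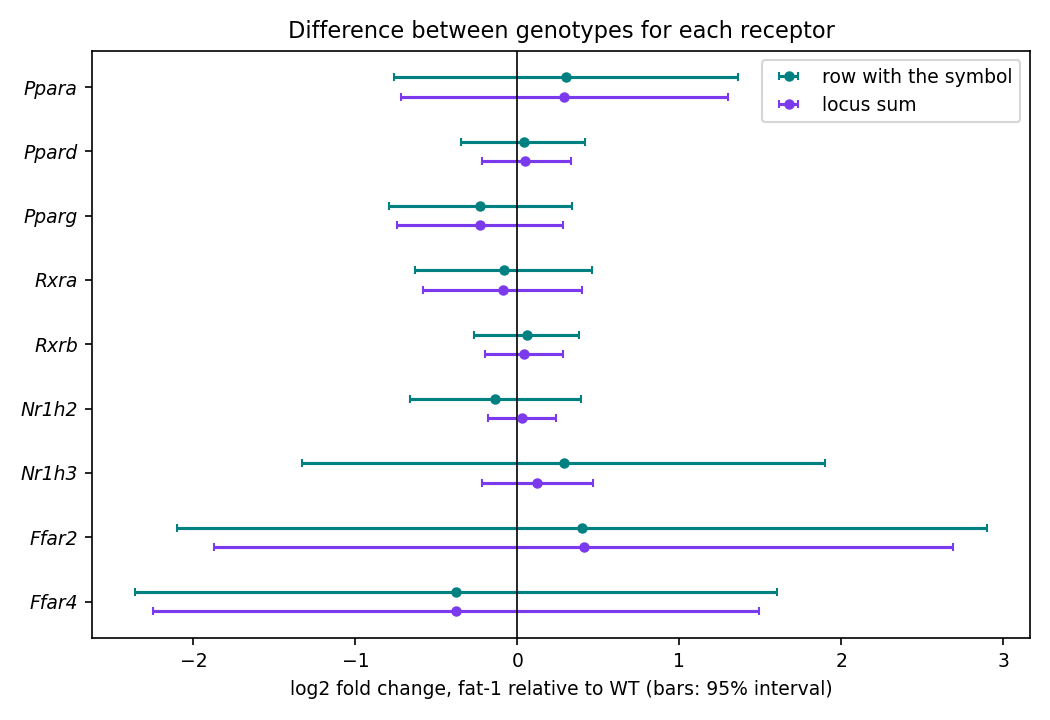
The log2 fold change of *fat-1* relative to WT (x axis) for each receptor (y axis), as row with the symbol (green) and as locus sum (purple), with the 95% interval as bars. All intervals include 0, and they are narrowest for the locus sums of *Nr1h2*, *Rxrb* and *Ppard* and widest for *Ffar2* and *Ffar4*.

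*Ppard*, which encodes the widely expressed PPARδ, had the highest level of the PPARs per kilobase of exon. Its row with the symbol (chromosome 17, 28232700 to 28301474, GRCm38) had 106, 128 and 117 CPM in *fat-1* pools and 115, 130 and 95.3 CPM in WT pools, 117 ± 11.1 and 114 ± 17.4 CPM (SD, *n* = 3). The genotypes overlapped, with the highest and the lowest value both in WT pools. Between genotypes the log2 fold change was 0.04 (standard error, SE, 0.16, 95% interval −0.35 to 0.42). The *Ppard* locus also had a row without a symbol, which held 5522, 0 and 4692 counts in *fat-1* pools and 0, 3756 and 5299 in WT pools. In *fat-1* pool 2 and WT pool 1 the whole locus was thus counted under the symbol, and in the other samples 78.7% to 88.7% of it. With both rows added, *Ppard* had 131, 127 and 139 CPM in *fat-1* pools and 116, 146 and 121 CPM in WT pools. The sum had a log2 fold change of 0.05 (SE 0.11), and its 95% interval of 0.861- to 1.25-fold limits the size of a difference.

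*Pparg*, the master regulator of fat cell formation, was counted in all samples although the adipocyte markers were near 0. Its single row (chromosome 6, 115360951 to 115490399) had 4.48, 6.03 and 5.17 CPM in *fat-1* pools and 5.88, 7.63 and 4.85 CPM in WT pools. The lowest value was in *fat-1* pool 1 and the highest in WT pool 2, and the other values were interleaved. Its log2 fold change was −0.23 (SE 0.23, 95% interval −0.79 to 0.34), and it ranged from −0.37 to −0.04 over the fits with 1 sample omitted, smallest without WT pool 2. *Ppara* (chromosome 15, 85734983 to 85802819) was rare, with 64, 34 and 50 counts in *fat-1* pools and 48, 56 and 20 in WT pools, or 0.0971 to 0.305 CPM. Its log2 fold change was 0.30 (SE 0.43), and the interval of 0.591- to 2.57-fold leaves differences of that size undetectable here.

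Levels of different genes were compared as CPM per kilobase of merged exon. Over the 6 samples, the 3 PPAR genes divided their total unequally. In the rows with the symbol, *Ppard* made up 86.7% to 89.8%, *Pparg* 9.70% to 12.9% and *Ppara* 0.176% to 0.508%. The share of *Pparg* was 9.70%, 10.7% and 10.1% in *fat-1* pools and 11.4%, 12.9% and 11.4% in WT pools, so that all *fat-1* values were below all WT values. The exact permutation *p*-value (two-sided) was 0.1, the smallest that 3 against 3 samples allow, and 0.25 after adjustment over the 5 shares of PPAR and RXR genes tested. This separation depended on the row. With the locus sums, which add the *Ppard* counts without a symbol, the share of *Pparg* was 7.92%, 10.7% and 8.62% in *fat-1* pools and 11.4%, 11.7% and 9.23% in WT pools, and the genotypes overlapped (exact permutation *p* = 0.2, adjusted 0.5). Per kilobase of coding sequence, *Ppard* made up 95% to 96.2% of the rows with the symbol.

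**Figure D3:**
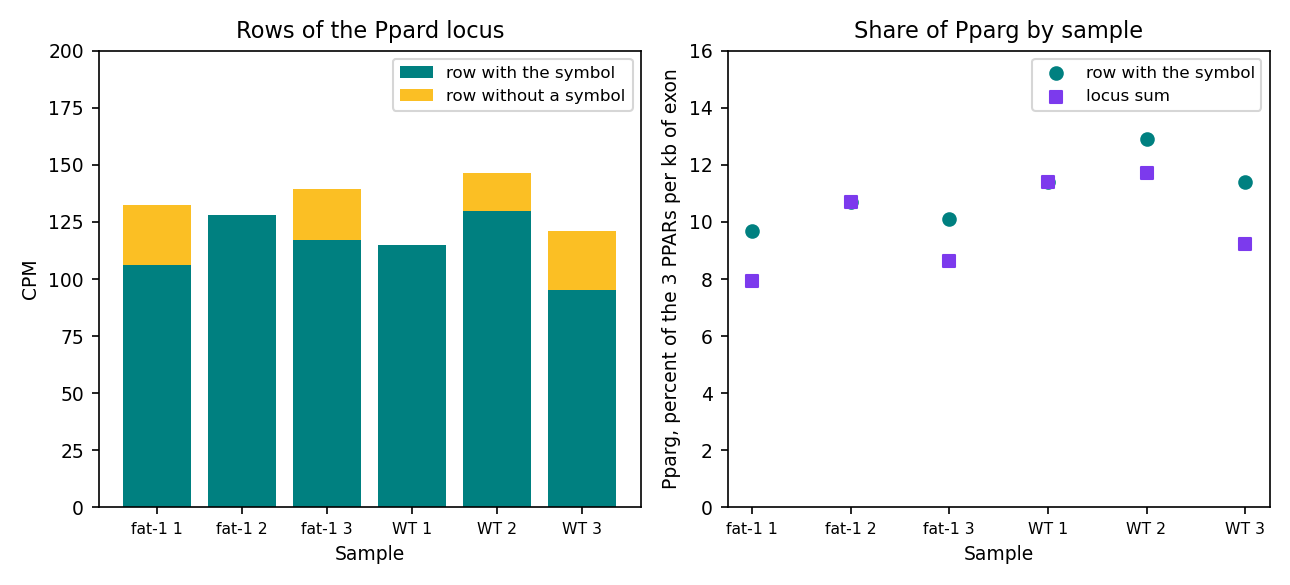
Left, CPM of the *Ppard* locus in each sample, stacked as the row with the symbol (green) and the row without a symbol (yellow). Right, *Pparg* as a percentage of the 3 PPAR genes per kilobase of exon in each sample, from the rows with the symbol (green circles) and the locus sums (purple squares). The yellow part is missing in *fat-1* pool 2 and WT pool 1, and the purple squares fall below the green circles wherever it is present.

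RXRs, the shared partners of PPARs and LXRs, did not differ between genotypes beyond the spread of the samples. *Rxra* (chromosome 2, 27676440 to 27762957), with 1 row in its locus, had 71.5, 53.8 and 73.9 CPM in *fat-1* pools and 75.6, 82.6 and 53.0 CPM in WT pools. The lowest values were in *fat-1* pool 2 and WT pool 3, the samples with the lowest epithelial markers. For *Rxra* the log2 fold change was −0.08 (SE 0.22, 95% interval −0.63 to 0.46). *Rxrb* (chromosome 17, 34031812 to 34038399) was steadier, with 52.7, 42.9 and 46.9 CPM in *fat-1* pools and 46.9, 43.0 and 47.0 CPM in WT pools. Its row held 66.6% to 73.6% of the counts of its locus, and the difference of the locus sum was 0.04 on the log2 scale (SE 0.10, 95% interval −0.20 to 0.28). Per kilobase of exon, *Rxra* made up 45.0% to 58.3% of the RXR rows with the symbol and 36.4% to 50.1% of the locus sums, so the order of *Rxra* and *Rxrb* was not fixed by these data. The third RXR gene, *Rxrg*, reached 0.297 CPM at most.

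*Nr1h2*, the LXR found in most tissues, lies 766 bases from *Pold1* on the same strand, and the assembly placed both genes in 1 locus. The *Nr1h2* row (chromosome 7, 44549616 to 44553951) had 55.3, 60.5 and 42.1 CPM in *fat-1* pools and 69.4, 57.7 and 46.6 CPM in WT pools. The highest value was in WT pool 1 and the lowest in *fat-1* pool 3, and the genotypes overlapped. Its log2 fold change was −0.14 (SE 0.21), and that of the locus sum was 0.03 (SE 0.09). The row held 27.9% to 51.2% of the counts of the locus, *Pold1* had 474 to 1701 counts and a row without a symbol had 12452 to 22202 counts, which cannot be assigned to either gene. Added to the row without a symbol but not to *Pold1*, *Nr1h2* had 128, 137 and 149 CPM in *fat-1* pools and 128, 132 and 138 CPM in WT pools, a log2 ratio of the means of 0.06.

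*Nr1h3*, the LXR known from macrophages, liver and fat, could not be measured well from the table. Its row (chromosome 2, 91184061 to 91202834) had 91, 342 and 118 counts in *fat-1* pools and 80, 274 and 112 in WT pools, which was 0.575% to 2.22% of the counts of its locus. *fat-1* pool 2 and WT pool 2 stood above the others, and the genotypes overlapped. For the row the log2 fold change was 0.29 (SE 0.66), and it was −0.51 without *fat-1* pool 2 and 0.92 without WT pool 2. *Nr1h3* starts 223 bases after the end of *Madd* in chromosome coordinates, on the same strand, and the locus also held *Madd* with 551 to 2404 counts and a row without a symbol with 10556 to 15129 counts. The row without a symbol made up 80.9% to 95.7% of the locus and cannot be assigned to either gene. The locus sum, 70.4 ± 5.45 CPM in *fat-1* pools and 64.6 ± 11 CPM in WT pools (SD, *n* = 3), is therefore not a level of *Nr1h3* alone. It had a log2 fold change of 0.12 (SE 0.14). Added to the row without a symbol but not to *Madd*, *Nr1h3* had 72.4, 63.3 and 61.3 CPM in *fat-1* pools. In WT pools this was 49.7, 53.1 and 74.0 CPM, a log2 ratio of the means of 0.16.

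*Ffar4* varied 7.78-fold between samples, and the variation ran within both genotypes. Its single row (chromosome 19, 38097071 to 38114263) had 8.36, 1.42 and 4.78 CPM in *fat-1* pools and 11, 5.91 and 1.98 CPM in WT pools. The highest values were in *fat-1* pool 1 and WT pool 1, and the lowest in *fat-1* pool 2 and WT pool 3. The difference between genotypes was −0.38 on the log2 scale (SE 0.81), with an interval of 0.195- to 3.04-fold, and it changed sign, to 0.30, without WT pool 1. *Ffar4* was ordered as the epithelial markers were in all 6 samples. The Pearson correlation of its log2(CPM + 1) with the mean over 15 epithelial markers (luminal and basal) was r = 0.991 (exact permutation *p* = 0.00278, or 0.05 once adjusted over 36 relations) and Spearman's rho was 1.00 (exact permutation *p* = 0.00278, or 0.05 once adjusted), both at the smallest *p*-value that 6 samples allow. Without the 2 samples farthest from the median of the markers, *fat-1* pool 2 and WT pool 3, r was 0.962. These samples were the whole lowest level of the epithelial markers, so this r rests on the higher levels only. With lymphocyte markers r was −0.972 (exact permutation *p* = 0.00556, or 0.05 once adjusted, and Spearman's rho = −0.943, exact permutation *p* = 0.0167, or 0.12 once adjusted), and −0.930 without the 2 farthest samples. In bulk samples, fewer cells of a type and less RNA per cell cannot be told apart.

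*Ffar2* showed the widest spread, 13.1-fold, in the opposite order. Its row (chromosome 7, 30818348 to 30823775) had 37, 234 and 216 counts in *fat-1* pools and 21, 83 and 264 in WT pools, or 0.0980 to 1.28 CPM. It was low where *Ffar4* was highest, in *fat-1* pool 1 and WT pool 1, and highest in WT pool 3. On the log2 scale the difference was 0.40 (SE 1.02), with an interval of 0.234- to 7.48-fold, and it was 1.72 without WT pool 3 and −0.10 without WT pool 1. Across the 6 samples *Ffar2* followed the lymphocyte markers, with r = 0.970 (exact permutation *p* = 0.00278, or 0.05 once adjusted) and rho = 1.00 (exact permutation *p* = 0.00278, or 0.05 once adjusted), and r was 0.994 without the 2 farthest samples. It ran against the epithelial markers (r = −0.901, exact permutation *p* = 0.00556, or 0.05 once adjusted, and Spearman's rho = −0.943, exact permutation *p* = 0.0167, or 0.12 once adjusted; r = −0.828 without the 2 farthest samples). *Ffar2* is known from neutrophils and other myeloid cells, and the 6 neutrophil markers were not ordered alike. *Csf3r* had 1.01, 3.25 and 2.88 CPM in *fat-1* pools and 1.47, 2.5 and 2.98 CPM in WT pools, and it was low in the same pools as *Ffar2*, *fat-1* pool 1 and WT pool 1, as was *Mmp9* (2.64 and 3.40 CPM there, 4.20 to 5.62 CPM in the others). *S100a8* had 6.65, 15.5 and 6.06 CPM in *fat-1* pools and 9.97, 7.54 and 11.7 CPM in WT pools, and it was lowest in *fat-1* pool 3, as was *S100a9*. *Cxcr2* ranged from 0.318 to 1.30 CPM. *Ly6g* ranged from 0.0839 to 0.323 CPM and was highest in WT pool 1, where *Ffar2* was lowest. With macrophage markers *Ffar2* had r = 0.754 (exact permutation *p* = 0.122, or 0.338 once adjusted). Spearman's rho was 0.543 (exact permutation *p* = 0.297, or 0.594 once adjusted). Without the 2 samples farthest from the median of the macrophage markers, *fat-1* pool 1 and WT pool 1, r was −0.563. Since the epithelial markers lay at 3 levels with 2 samples each, the relations to them rest on 3 levels. Without the 2 farthest samples, 2 levels remain. The part of the cell make-up of the samples in the levels of *Ffar2* and *Ffar4* was not tested.

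**Figure D4:**
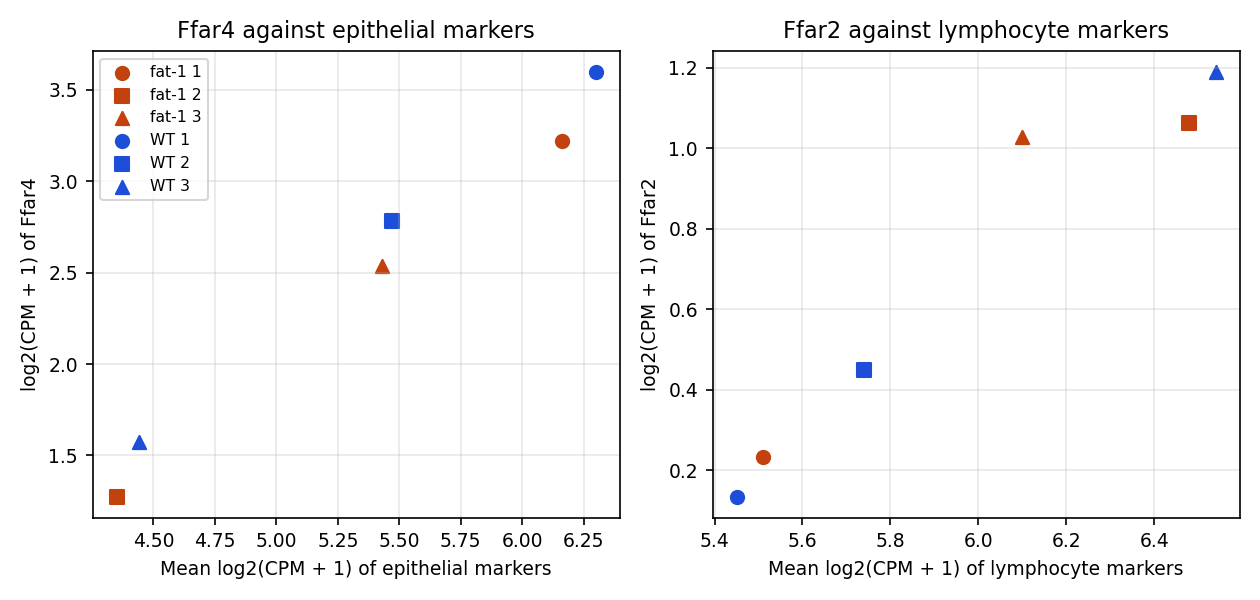
Left, log2(CPM + 1) of *Ffar4* against the mean log2(CPM + 1) of 15 epithelial markers. Right, log2(CPM + 1) of *Ffar2* against that of 7 lymphocyte markers. Each point is 1 of the 6 samples (*fat-1* orange, WT blue, shape for sample number), and points of both genotypes rise together along the same course (r = 0.991 and 0.970).

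Of the 36 relations between the 9 receptors and the epithelial, adipocyte, macrophage and lymphocyte markers, 4 had an adjusted *p*-value at the threshold of 0.05 for Pearson's r, and all 4 belonged to *Ffar4* and *Ffar2*. Both receptors share the 6 libraries with the markers, and 573 of 9328 compared genes had an r of at least 0.95 with *Ffar4* and 424 of 9329 with *Ffar2*, beside 8 to 96 genes for the other receptors. The next largest r was that of *Ppara*, with −0.840 for lymphocyte markers (exact permutation *p* = 0.05, or 0.225 once adjusted, and Spearman's rho = −0.657, exact permutation *p* = 0.175, or 0.485 once adjusted), which was −0.249 without the 2 farthest samples. *Rxra* had r = 0.818 with epithelial markers (exact permutation *p* = 0.0944, or 0.309 once adjusted, and Spearman's rho = 0.657, exact permutation *p* = 0.175, or 0.485 once adjusted), and −0.496 without the 2 farthest samples, so both relations rest on those samples. *Pparg* had r = 0.788 with adipocyte markers (exact permutation *p* = 0.00833, or 0.06 once adjusted, and Spearman's rho = 0.943, exact permutation *p* = 0.0167, or 0.12 once adjusted), and 0.808 without the 2 farthest samples. The *Nr1h3* locus sum, which also holds *Madd*, had r = −0.801 with them (exact permutation *p* = 0.0111, or 0.0667 once adjusted). Its Spearman's rho was −0.886 (exact permutation *p* = 0.0333, or 0.2 once adjusted), and r was −0.896 without the 2 farthest samples. The adipocyte markers had few counts.

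The 2 genes whose levels were most like each receptor over the 6 samples were taken from 9328 or 9329 genes with a mean of at least 5 CPM, by Pearson's r of log2(CPM + 1), as a description. Among so many genes high values arise easily with 6 samples. They were *Fam3a* (r = 0.9988) and *0610040J01Rik* (r = 0.9978) for *Ffar4*, and *Tbp*, the TATA-binding protein (r = 0.9986), and *Mppe1* (r = 0.9981) for *Ffar2*. *0610040J01Rik* had 9.96, 2.10 and 5.91 CPM in *fat-1* pools and 12.5, 6.45 and 2.59 CPM in WT pools, close to the values of *Ffar4* itself. *Tbp* shared the order of *Ffar2* only over a narrow range, 31.3 to 38.9 CPM. For *Rxra* they were *Ptgfrn* (r = 0.995) and *Ergic1* (r = 0.9946), for *Rxrb* *Pmepa1* (r = 0.998) and *Bmf* (r = 0.9908), for *Ppard* *Galnt10* (r = 0.9944) and *Gtf3c4* (r = 0.9932), and for *Pparg* *Ly96* (r = 0.9724) and *Tbck* (r = 0.9706). For *Ppara* they were *Apc* (r = 0.9918) and *Capn2* (r = 0.9904), for the *Nr1h2* locus *Ninj1* (r = 0.9908) and *Fbxo42* (r = 0.9886), and for the *Nr1h3* locus *Zfp276* (r = 0.9906) and *Arid1a* (r = 0.9893).

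In CPM per kilobase of merged exon, the rows with the symbol fell into a high, a middle and a low group. The high group was *Nr1h2* with 16.5 ± 2.93 (SD over the 6 samples), *Ppard* with 15.3 ± 1.75, *Rxra* with 12.5 ± 2.23 and *Rxrb* with 11.7 ± 0.901, whose ranges overlapped from each gene to the next. *Ffar4* with 3.99 ± 2.64 and *Pparg* with 1.92 ± 0.382 formed the middle group, and their ranges also overlapped. *Nr1h3* (0.313 ± 0.198), *Ffar2* (0.242 ± 0.186) and *Ppara* (0.0553 ± 0.0191) were lowest. The *Nr1h3* row held only 0.575% to 2.22% of the counts of its locus, so its place describes the row and not the level of the gene. For the locus sums the order was different, with the *Nr1h2* and *Nr1h3* loci first (41.7 ± 2.27 and 26.8 ± 3.33). These also hold the counts of *Pold1* and *Madd* and of rows without a symbol that cannot be assigned. In the rows with the symbol, no sample of the middle group reached the lowest value of the high group, 9.71 for *Rxra*, and none of the low group reached the lowest value of *Ffar4*, 1.01. With coding length in place of exons, *Ppard* came first (87.2) and *Rxra* passed *Nr1h2* (48.8 against 41.3, with overlapping ranges), while each of the groups held the same genes. Within the 6 samples, the coefficient of variation of the locus sum was 77.0% for *Ffar2* and 66.4% for *Ffar4*, which only 2.12% and 4.30% of the 24061 tested loci exceeded, and 5.44% to 34.4% for the other 7 receptors, beside a median of 21.2% over all loci.

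Genes that act with the receptors were followed in 7 lists, counted as locus sums. All 63 genes passed the filter, 0 had an adjusted *p*-value of 0.05 or less, and 1 had an unadjusted *p*-value of 0.05 or less, beside 1.14% of all locus sums. The median log2 fold change of the 63 genes was 0.00 and that of all loci 0.0018. Of the 63 genes, 32 had a positive and 31 a negative value, beside 12178 and 11883 of all 24061 loci. The gene at the unadjusted threshold was *Fabp4*, a fatty acid carrier and PPARγ target that fat cells, endothelial cells and macrophages make. *Fabp4* had 93.6, 106 and 83.2 CPM in *fat-1* pools and 112, 126 and 112 CPM in WT pools, and all *fat-1* values were below all WT values, as in 4.15% of all locus sums in either direction. Its log2 fold change was −0.31 (SE 0.12, unadjusted *p* = 0.037, adjusted *p* = 1.00, quasi-likelihood test). With each sample omitted it was −0.40 to −0.22, and the unadjusted *p*-value passed 0.05 only without *fat-1* pool 2 (0.0164), with 0.066 to 0.12 in the other fits. For the *Fabp4* row with the symbol the unadjusted *p*-value was 0.0655 (quasi-likelihood test). For the sum it was 0.086 by the exact test of edgeR and 0.043 by DESeq2. With rows in place of sums, 0 of the 63 genes had an unadjusted *p*-value of 0.05 or less. The 5 endothelial markers had a median log2 fold change of −0.26 and a lower mean in *fat-1* pools for 4 of 5 genes, though *Pecam1* was at −0.0. The median was −0.13 for the 7 macrophage markers, 0.04 for the 7 adipocyte markers and −0.32 for the 5 fibroblast markers. The part of these cell types in the *Fabp4* values was not tested. *Fabp5* had 28.7 ± 5.24 CPM and 36.2 ± 4.19 CPM (SD, *n* = 3), an overlapping difference. In the list of 8 genes for fatty acid binding and uptake, 7 had a negative log2 fold change, with a median of −0.22. The values ran from −0.51 to 0.55. The signs depended on single samples, with 5 of 8 negative without *fat-1* pool 2 and 7 of 8 without *fat-1* pool 3.

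The list of 12 PPAR target genes had 11 negative values and a median log2 fold change of −0.11, and 0 genes with an unadjusted *p*-value of 0.05 or less. The signs were not stable. Without *fat-1* pool 2, 6 of the 12 were negative and the median was 0.00, and without *fat-1* pool 1 all 12 were negative and the median was −0.29. *Pdk4*, a kinase that inhibits pyruvate dehydrogenase, had 6.66, 6.10 and 5.56 CPM in *fat-1* pools and 7.28, 13.8 and 6.37 CPM in WT pools, so that WT pool 2 alone stood above the others. Its log2 fold change was −0.58 (SE 0.31), and −0.16 without WT pool 2. *Txnip*, with the highest CPM of the list, had 288 to 507 CPM in *fat-1* pools and 311 to 575 CPM in WT pools.

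Target genes of LXR showed small differences. The 11 genes had log2 fold changes between −0.13 and 0.16 with a median of 0.03, and 0 had an unadjusted *p*-value of 0.05 or less. *Abcg1*, a cholesterol exporter, had 44.9, 53.9 and 44.6 CPM in *fat-1* pools and 46.5, 34.3 and 47.0 CPM in WT pools, so that only WT pool 2 stood below the others. *Arl4c* had 67.9 ± 3.52 CPM and 64.0 ± 6.90 CPM (SD, *n* = 3). *Apoe* shared its locus with *Tomm40*, and the sum had 293 ± 68.8 CPM and 290 ± 28.9 CPM, while the *Apoe* row alone ranged from 38.8 to 160 CPM, both in WT pools.

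Coregulators, the proteins that switch nuclear receptors on or off, comprised 10 genes with 0 unadjusted *p*-values of 0.05 or less and a median log2 fold change of 0.06. The corepressor *Ncor1* had the highest CPM as a locus sum, with 303 ± 20.6 CPM in *fat-1* pools and 285 ± 16 CPM in WT pools (SD, *n* = 3). Its row with the symbol ranged from 26.2 to 125 CPM, with a log2 fold change of −1.01 (SE 0.63) against 0.09 for the sum. The rows of *Crebbp* (124 to 142 CPM) and *Ncoa3* (103 to 133 CPM) were higher. The locus sum of the coactivator *Ep300* had 194 ± 4.81 CPM and 183 ± 4.90 CPM, a log2 fold change of 0.08 (SE 0.07), and the samples overlapped. The *Ep300* row alone ranged from 37.2 to 167 CPM. *Ppargc1a*, a coactivator of PPARγ, was rare, with 0.716, 1.00 and 0.942 CPM in *fat-1* pools and 1.26, 1.17 and 0.895 CPM in WT pools. Among the 9 other partners of RXR, *Nr4a1* had the highest CPM (57.9 ± 14.1 and 59.5 ± 9.33 CPM) and *Thrb*, a thyroid hormone receptor, had 9.99 ± 1.70 CPM and 11.2 ± 1.76 CPM. *Rarb*, a retinoic acid receptor, was near the limit of counting, with 0, 13 and 3 counts in *fat-1* pools and 10, 8 and 17 in WT pools. The count of 0 in *fat-1* pool 1 allows up to 0.0144 CPM.

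The other fatty acid receptors were mostly rare. *Ffar3*, a further receptor for short-chain fatty acids, had 39, 41 and 34 counts in *fat-1* pools and 38, 6 and 34 in WT pools, so that WT pool 2 alone stood apart. *Ffar1* had 0.149 to 0.617 CPM in its own row, and its locus also held the B cell gene *Cd22*, with 44.8 to 173 CPM for the sum. *Hcar2*, the receptor for niacin and ketone bodies, had 27.8, 12.4 and 20.1 CPM in *fat-1* pools and 21.3, 14.5 and 13.1 CPM in WT pools. The list of 5 genes also held the RXR gene *Rxrg*. All 5 had a positive log2 fold change, with a median of 0.30, but 0 had an unadjusted *p*-value of 0.05 or less. The value for *Ffar1* is that of the sum with *Cd22*. The signs depended on single samples, with 3 of 5 positive without *fat-1* pool 3 (median 0.17) or without WT pool 1 (median 0.03), and a median of 0.58 without WT pool 3. Of the genes of FFAR signalling, *Gnai2*, a G protein subunit, had 325, 296 and 316 CPM in *fat-1* pools and 315, 279 and 305 CPM in WT pools, the arrestin *Arrb1* had 35.6 ± 3.51 CPM and 38.2 ± 4.61 CPM (SD, *n* = 3), and the 8 genes had a median log2 fold change of 0.03.

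**Figure D5:**
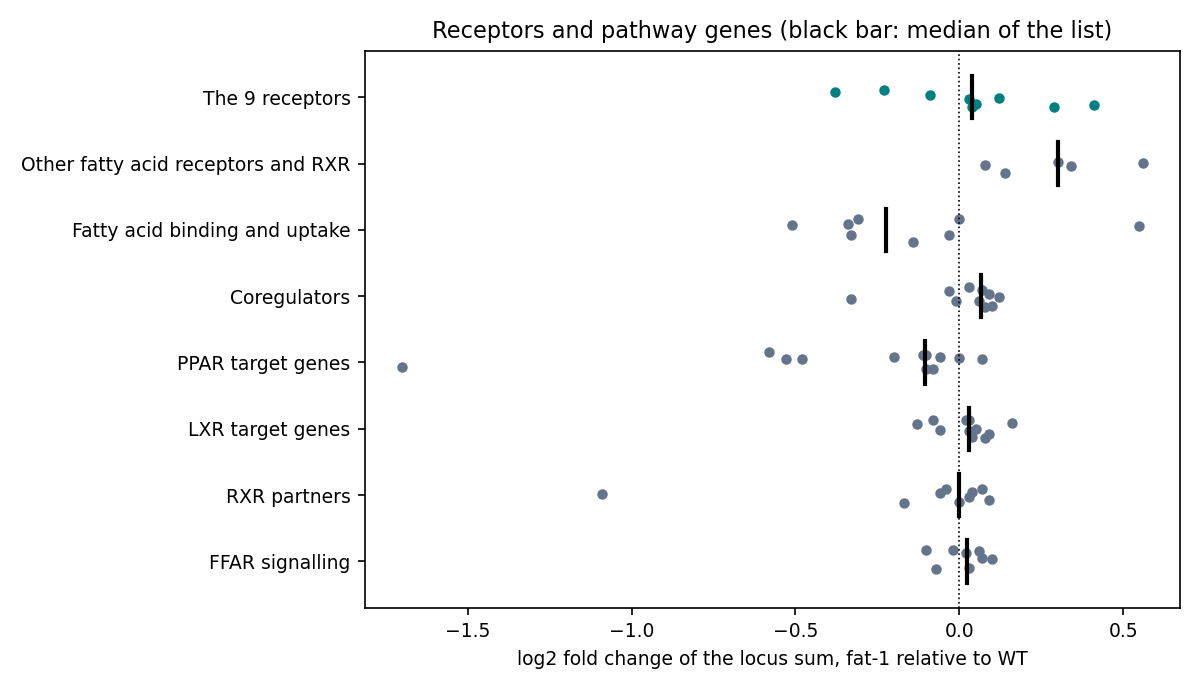
The log2 fold change of the locus sum, *fat-1* relative to WT (x axis), for the 9 receptors (green) and the genes of the 7 pathway lists (grey), with the median of each list as a black bar. Most genes lie within 0.5 of 0, and *Rarb* (−1.09) is the point farthest to the left among the RXR partners.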

How the data were processed

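RNA was sequenced from 3 *fat-1* and 3 WT pooled samples, and genotype and replicate number were taken from the sample labels. The authors mapped reads to GRCm38 with HISAT2, assembled transcripts with StringTie and deposited estimated counts, which were whole and unnormalized, so rounding changed nothing. Versions, annotation and strand setting are not given in the sources used here, so counts of neighbouring genes in 1 locus are uncertain. Columns without a sample numbered 0.

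The receptors and gene lists were chosen with earlier results of these data known. Rows (61880) and sums over the 53912 loci were tested in R 4.3.3 with edgeR 4.0.16 (quasi-likelihood, newer fit, genotype only, filterByExpr, TMM normalization, Benjamini–Hochberg adjustment). CPM are relative to normalized totals. Standard errors (SE) were derived from log2 fold change and F statistic, and 95% intervals use the degrees of freedom of the fit. DESeq2 1.42.0 and other settings were alternatives. Exact permutation tests were two-sided. The tests were tried on simulated counts. Gene positions and exon lengths are from GENCODE M21 (GRCm38), matched by symbol for all 9 receptors. Genes named besides the receptors were, for each pathway list, the 2 with the smallest *p*-value and the most abundant, and the 2 most alike to each receptor. Of these, 1 gene of the PPAR target list is not reported here. *Rxrg*, the marker genes and genes that share a locus with a named gene were named after their values were seen. Python 3.11.15 with scipy 1.17.1 was used for summaries.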

Additional observations from a re-analysis of the deposited data

How the results depend on the processing

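Under the other settings (no filter on low counts, size factors of DESeq2, library size only, the older edgeR fit, edgeR's exact test, DESeq2 and the replicate block), 126 of 126 log2 fold changes of the receptors kept their sign and stayed short of the adjusted threshold, and 0 receptors and 0 of the 63 pathway genes were called. Over all rows the exact test gave 32 calls and DESeq2 93, against 0 by the quasi-likelihood test, and over locus sums 6 and 8 against 0. With a sample left out there were 0 to 2 calls over rows and 0 to 1 over locus sums. The cause was not tested.

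With a sample left out, 21 of 108 log2 fold changes of receptors changed sign, and 0 passed the threshold. For the row with the symbol the ranges were −0.01 to 0.54 for *Ppara*, −0.07 to 0.15 for *Ppard*, −0.25 to 0.05 for *Rxra*, −0.02 to 0.13 for *Rxrb*, −0.27 to 0.01 for *Nr1h2*, −0.51 to 0.92 for *Nr1h3*, −0.10 to 1.72 for *Ffar2* and −1.02 to 0.30 for *Ffar4*. For the locus sum they were 0.0 to 0.53 for *Ppara*, −0.01 to 0.16 for *Ppard*, −0.24 to 0.04 for *Rxra*, −0.03 to 0.09 for *Rxrb*, −0.02 to 0.10 for *Nr1h2*, −0.09 to 1.73 for *Ffar2* and −1.02 to 0.30 for *Ffar4*.

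Same-numbered samples did not all deviate together (correlations of 0.799, −0.164 and 0.132 for numbers 1, 2 and 3, locus sums), and *fat-1* sample 2 correlated best with WT sample 3 (0.789), so the numbers were not taken to pair the samples. With the replicate block there were 0 calls over rows and 0 over locus sums, with 784 and 376 at the unadjusted threshold against 678 and 274.

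With log2(CPM + 0.1), 2 relations to markers stayed at the adjusted threshold in place of 4. The relation of *Ffar2* to epithelial markers (r = −0.898, adjusted *p* = 0.0667, exact permutation) and that of *Ffar4* to lymphocyte markers (r = −0.967, adjusted *p* = 0.075) no longer passed. The sign of r turned for *Ppard* with epithelial markers (0.011 with log2(CPM + 0.1), 0.033 with the row with the symbol) and, with the row with the symbol, for *Nr1h2* (0.355 with epithelial, −0.441 with macrophage and −0.498 with lymphocyte markers) and *Nr1h3* (0.457 with adipocyte and 0.582 with macrophage markers), whose loci hold another gene. Leaving out markers whose locus holds another coding gene, chosen after seeing the data, changed no call. Counts were lowest for *Rarb*, *Ppara* and *Ffar2*, and how far depth limits each value was not tested.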
